A study of Bos taurus with 64 samples.

Results

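The 69 genes described here are the nuclear genes of the mitochondrial respiratory chain and of ATP synthase that could be read on a bovine muscle array. They were chosen by name, as every gene whose name on the array begins with NDUF, SDHA to SDHD, UQCR, COX4 to COX8, CYC1, CYCS or ATP5, and no expression value entered the choice. They had 69 probes among 13285 probes of 5449 gene names and probe sets. The rule found 34 subunits of complex I, 4 of complex II, 5 of complex III, 12 of complex IV and 11 of complex V. It also caught 3 other names, which are COX7A2L, a factor of respiratory supercomplexes, ATP5S, and COX4NB, which RefSeq now calls EMC8 and which is no subunit of the chain. No gene named CYCS was on the array.

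The arrays came from 32 Normand cull cows slaughtered at 4.5 years, with RNA from the M. longissimus thoracis (LT), a postural muscle of the back, and from the M. semitendinosus (ST), a hind limb muscle of locomotion. Before slaughter, 16 cows were stressed by isolation during transport and by 30 min in a labyrinth on an unfamiliar farm (moderated stress in the labels), and 16 were handled with limited stress. In each of these groups, 8 cows had received the EP diet (vitamin E and plant extracts rich in polyphenols on a lipid-rich ration) and 8 the lipid-rich control ration alone, for 101 days. All the samples were whole muscle pieces taken within 15 min, so that fewer cells of a type and less RNA per cell cannot be told apart.

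In the inner mitochondrial membrane, complex I oxidizes NADH and complex II oxidizes succinate, and both pass electrons through ubiquinone to complex III. Cytochrome c carries the electrons on to complex IV, which reduces oxygen. Complexes I, III and IV pump protons, and complex V (ATP synthase) uses their return to make ATP. Oxidative slow fibres are rich in these complexes, and fast glycolytic fibres are poorer in them. Several subunits of complex IV have one isoform for heart and skeletal muscle and another for most other tissues.

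The probes are 60 bases long. The stretches below belong to NDUFA3, NDUFS6, ATP5D and COX6B2, which differed between the muscles, and to UQCR, for which probes disagreed. NDUFC1 and NDUFB1, whose difference changed sign between groups of cows, are shown as well. Each is a run of 30 bases, 5′ to 3′, and capitals mark the bases that it shares with a probe of a custom set on the same array, whose other probes were used as a second reading of the gene. COX6B2 shared none and has no capitals. Positions of the whole probe are those of the array files, in the build Btau_3.1.
NDUFA3, bases 27 to 56 of the probe at chr18:63534843-63534902, plus strand: AGACTGTGAACGCCTctgttaacagggagc
NDUFS6, bases 1 to 30 of the probe at chr20:74836857-74836916, minus strand: gtgtgtaTTTAAGAGAGTAATGGCTATGAT
ATP5D, bases 31 to 60 of the probe at chr7:42709734-42709793, plus strand: TCTGGCAGGTTGGGTGGCTGGGGGCAAGct
NDUFC1, bases 31 to 60 of the probe at chr17:19687556-19687615, plus strand: TGTCAAGTCAGCATTTGTGTTttacatgat
NDUFB1, bases 1 to 30 of the probe that spans chr21:57297836-57298839, minus strand: gggaattGAAACCTAATGAAGAAGTCACCT
COX6B2, bases 1 to 30 of the probe at chr18:62516181-62516239, plus strand: cccaaatctcaccccgctcctgccccgtct
UQCR, bases 1 to 30 of the probe at chr7:42995563-42995622, minus strand: ttgtgtgtggACACACAGCATTAAACCTCA

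The share of spots well above background was 71.4% to 80.9% per array. All the 69 genes passed the filter on dim probes in both muscles, none was saturated, and the 32 probes with duplicate spots differed between the spots by a median of 0.04 on the log2 scale. The levels below are log2 values of the signal over the 75th percentile of the array, and they are compared only within a probe. In both muscles the array of cow321, a stressed cow, correlated least with the others of its muscle. Its median r across probes was 0.969 for the LT array and 0.9665 for the ST array, against at least 0.9795 for every other array. No slide and no scan day held both muscles, so that muscle cannot be told apart from the slides and scan days of its arrays. The LT arrays of slides 5 and 6 were scanned on 1 day and those of slides 7 and 8 on another, with 16 cows each, so that scan day, slide and cow cannot be told apart within the LT.

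The muscles differed in most of these genes. Of the 69 genes, 48 were higher in the LT and 7 were lower (limma, adjusted p under 0.1 over all probes), where 22% of the 4327 transcripts tested were higher and 29.3% lower, 51.3% in all. The median log2 fold change (LT / ST) was 0.17 over the 69 genes and -0.03 over all transcripts. The differences were small: 2 of the 48 genes were above 0.5, 28 lay between 0.2 and 0.5, and the others were below 0.2. For no gene were the 32 LT values all above or all below the 32 ST values, and this was not counted over all transcripts. When the arrays were scaled by the median of the control features, the split was 52 higher and 1 lower. The median of all transcripts moved to 0.16, and 1186 of the 4327 were then higher and 250 lower. With the slide as a random block the split was 41 higher and 6 lower, against 726 and 1023 of all transcripts. With the scan day it was 40 higher and 5 lower, against 630 and 864.

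**Figure D1:**
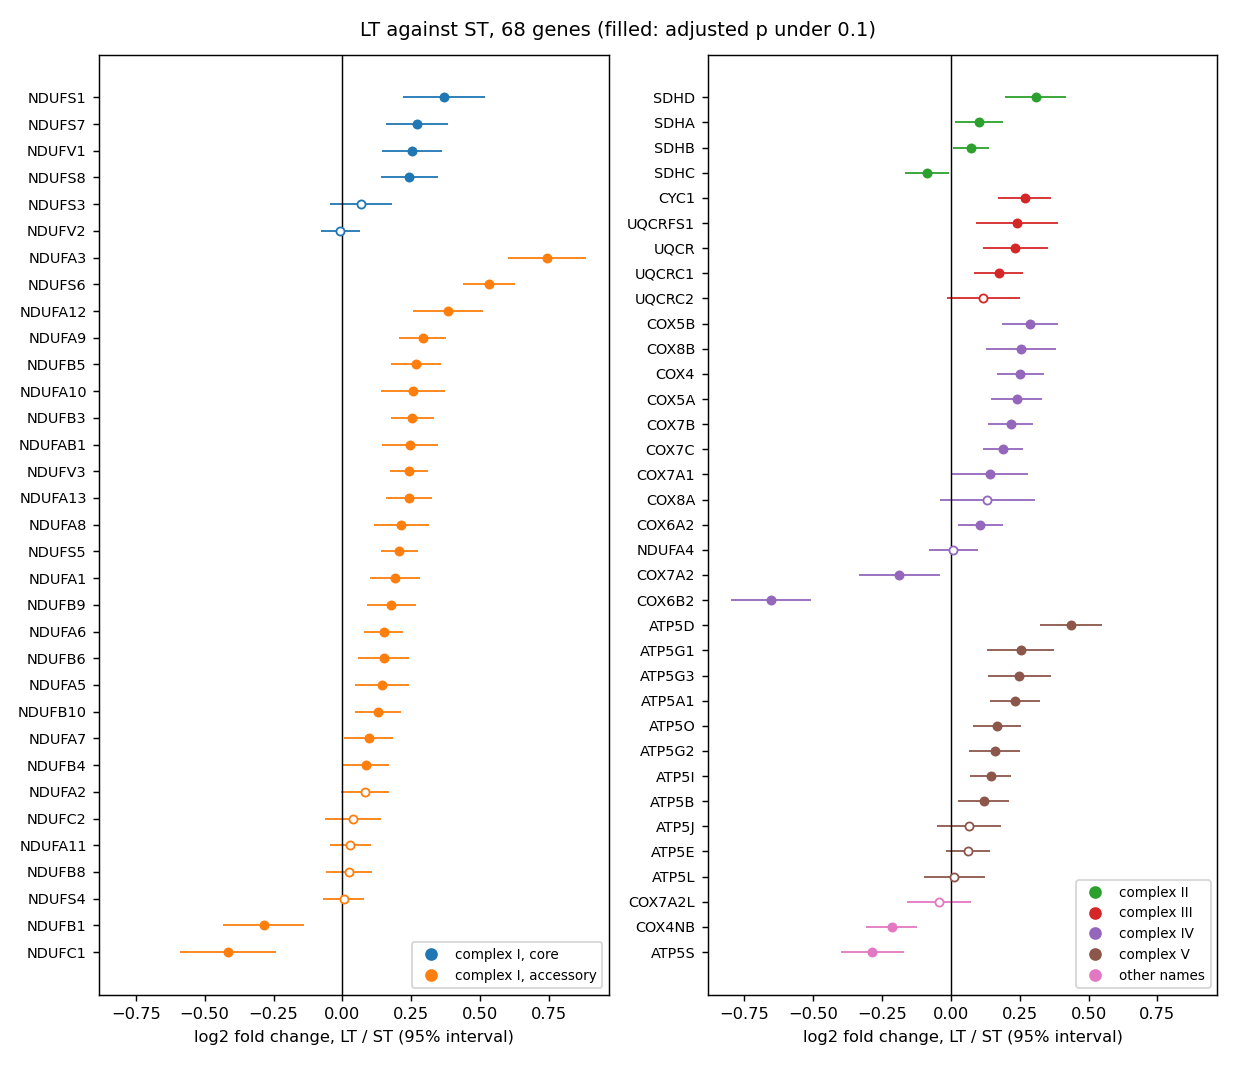
Log2 fold change (LT / ST) of 68 of the 69 genes with its 95% interval from limma, by complex. Filled circles passed an adjusted p of 0.1; 47 of them lie to the right of 0 and 7 to the left, and COX6B2 and NDUFC1 are farthest to the left.

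In complex I, 25 of 34 subunits were higher in the LT and 2 were lower. Among the 7 core subunits, which carry the flavin and the iron-sulfur clusters, 5 were higher, with a median log2 fold change of 0.25. NDUFS1, the largest core subunit, ranged from -0.69 to 0.36 in the LT (median -0.28) and from -1.37 to 0.08 in the ST (median -0.60). It was higher in the LT of 29 of 32 cows, with overlapping ranges and a log2 fold change of 0.37 (standard error 0.07 and adjusted p = 2.81e-05). NDUFV1, which binds NADH, was 0.25 higher (standard error 0.05 and adjusted p = 8.10e-05). The core subunits NDUFS3 and NDUFV2 did not pass the test, with log2 fold changes of 0.07 and -0.01.

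Within complex I the largest differences were in accessory subunits, of which 20 of 27 were higher and 2 lower. NDUFA3, a small membrane subunit, ranged from 1.25 to 2.47 in the LT (median 1.98) and from 0.49 to 1.84 in the ST (median 1.20). All the 32 LT values of NDUFA3 were above the median of the ST, and 31 cows had more in the LT than in the ST. Its log2 fold change was 0.74 (standard error 0.07 and adjusted p = 3.34e-13), a 1.67-fold difference. NDUFS6, a zinc-binding subunit, ranged from 0.73 to 1.46 in the LT (median 1.09) and from 0.21 to 0.96 in the ST (median 0.59). It too was higher in the LT of 31 cows, with a log2 fold change of 0.53 (standard error 0.05 and adjusted p = 2.25e-14). NDUFV3 (0.24), NDUFA9 (0.29), NDUFB3 (0.25) and NDUFS5 (0.21) were higher in the LT of 29 or 30 cows each, with adjusted p of 4.17e-07 or less.

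NDUFC1 and NDUFB1, small subunits of the membrane arm, were the accessory subunits called lower in the LT, and their values in the LT fell apart by scan day. NDUFB1 ranged from 0.50 to 1.74 in the LT (median 1.22) and from 0.86 to 1.85 in the ST (median 1.49). Its mean in the LT was 1.55 over slides 5 and 6 and 0.90 over slides 7 and 8, without overlap between the scan days. NDUFB1 was higher in the LT than in the ST in 14 of 16 cows of the former slides and in 0 of 16 of the latter. The log2 fold change over all cows was -0.29 (standard error 0.07 and adjusted p = 9.53e-04). NDUFC1 had a log2 fold change of -0.42 (standard error 0.09 and adjusted p = 6.29e-05) over all cows. Its mean difference between LT and ST was 0.09 in the cows of slides 5 and 6 and -0.92 in those of slides 7 and 8. For both genes the mean difference was thus above 0 in the former cows and below 0 in the latter.

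**Figure D2:**
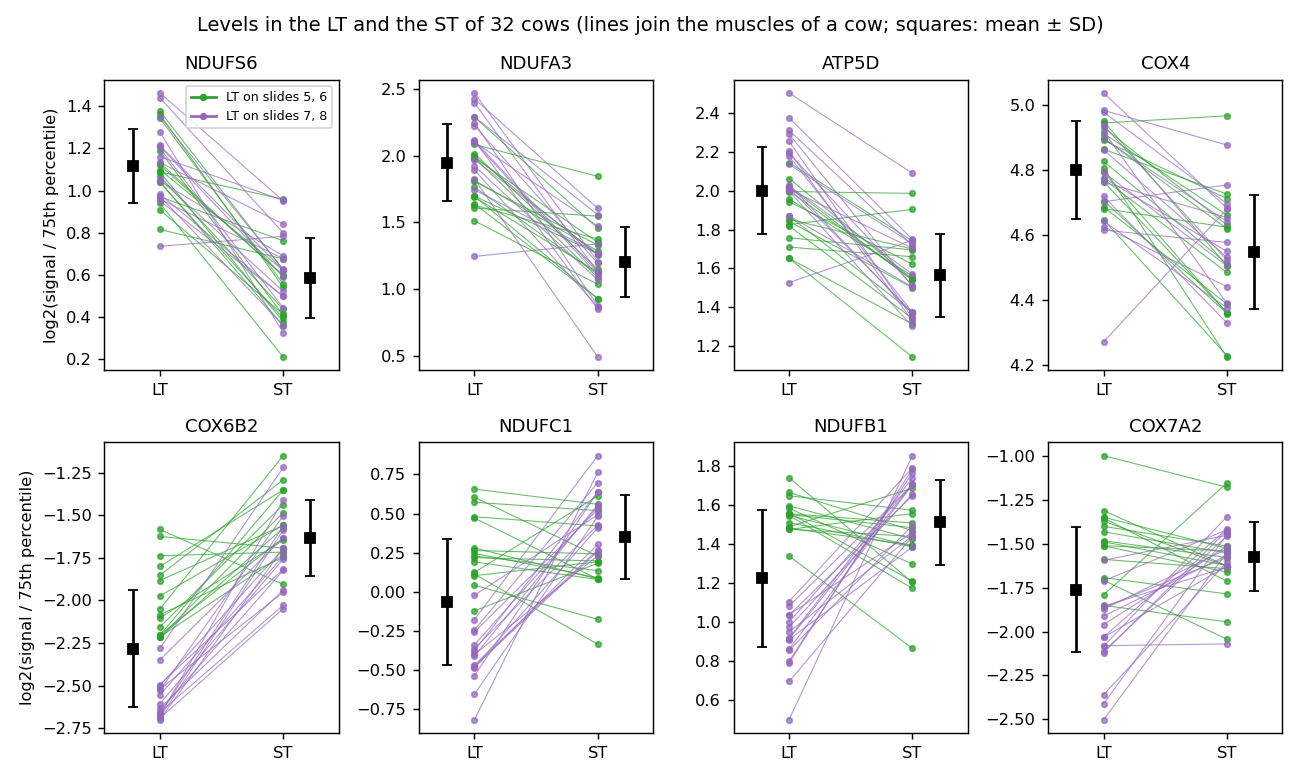
Levels of 8 genes, as log2 of the signal over the 75th percentile of the array, with a line for each of the 32 cows coloured by the slides of its LT array and squares for the mean ± SD of each muscle. NDUFS6, NDUFA3, ATP5D and COX4 slope down from LT to ST in 29 to 31 cows, whereas NDUFC1, NDUFB1 and COX7A2 split by the slides of the LT.

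In complex II, 3 of 4 subunits were higher in the LT and 1 was lower. SDHD, a membrane anchor, ranged from 0.71 to 1.44 in the LT (median 1.19) and from 0.22 to 1.40 in the ST (median 0.87), with a log2 fold change of 0.31 (standard error 0.06 and adjusted p = 5.50e-06). SDHA, the flavoprotein that oxidizes succinate, was 0.10 higher (standard error 0.04 and adjusted p = 0.0449), and SDHB, the iron-sulfur protein, was 0.07 higher (standard error 0.03 and adjusted p = 0.0528). SDHC, the other anchor, had a log2 fold change of -0.09 (standard error 0.04 and adjusted p = 0.0669), and its sign turned under 2 of the scalings. The calls of SDHA, SDHB and SDHC were lost with the slide or the scan day as a block.

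In complex III, 4 of 5 subunits were called higher and none lower by the named probes, but for 1 of the 4, UQCR, other probes on the array were lower in the LT. CYC1, cytochrome c1, which hands electrons to cytochrome c, ranged from 4.29 to 5.16 in the LT (median 4.83) and from 4.16 to 5.06 in the ST (median 4.54). It was higher in the LT of 28 cows, with a log2 fold change of 0.27 (standard error 0.05 and adjusted p = 5.66e-06). UQCRC1, a core protein, was 0.17 higher (standard error 0.04 and adjusted p = 8.95e-04). UQCRC2 had a log2 fold change of 0.12 and did not pass the test.

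In complex IV, 8 of 12 genes were higher in the LT and 2 were lower. COX4 (COX4I1 in RefSeq), a regulatory subunit, ranged from 4.27 to 5.04 in the LT (median 4.80) and from 4.22 to 4.97 in the ST (median 4.54). It was higher in the LT of 29 cows, with a log2 fold change of 0.25 (standard error 0.04 and adjusted p = 1.61e-06). COX5A, the subunit beside it, was 0.24 higher (standard error 0.05 and adjusted p = 1.62e-05). COX6B2, known as the testis isoform of subunit VIb, was the gene furthest below 0. It ranged from -2.70 to -1.58 in the LT (median -2.25) and from -2.05 to -1.15 in the ST (median -1.64). It was lower in the LT of 30 cows, with a log2 fold change of -0.65 (standard error 0.07 and adjusted p = 4.85e-11). Its mean in the LT was -1.99 over slides 5 and 6 and -2.58 over slides 7 and 8, without overlap between the scan days. The difference between LT and ST was -0.44 in the former cows and -0.86 in the latter, so that it lay on the same side on both scan days.

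The muscle isoforms of complex IV lay above the ST in the LT. COX8B, the heart and muscle isoform of subunit VIII, was 0.25 higher (standard error 0.06 and adjusted p = 6.60e-04), COX6A2 0.11 (standard error 0.04 and adjusted p = 0.0254) and COX7A1 0.14 (standard error 0.07 and adjusted p = 0.0858). The calls of COX6A2 and COX7A1 were lost with the slide as a block (adjusted p = 0.114 and 0.243). COX7A2, the isoform of most other tissues, had a log2 fold change of -0.19 (standard error 0.07 and adjusted p = 0.0283). It was called under 8 of 12 alternatives, with log2 fold changes of -0.19 to -0.0001. COX8A, the ubiquitous isoform of subunit VIII, had one of 0.13 (standard error 0.09 and adjusted p = 0.198). The difference between isoforms was tested over the 32 cows in 5 pairs (two-sided permutation test, 100000 resamples, adjusted over the 5 pairs). The change of COX7A1 exceeded that of COX7A2 by 0.33 (95% interval 0.20 to 0.45, higher in 24 of 32 cows, adjusted p = 0.0001, the smallest that these resamples can give). This excess was 0.10 in the cows of slides 5 and 6 and 0.55 in those of slides 7 and 8, and COX7A2 itself was higher in the LT in 15 of 16 cows of the former and 0 of 16 of the latter. COX8B and COX8A differed by 0.12 (95% interval -0.05 to 0.30, above 0 in 25 of 32 cows, adjusted p = 0.212 in this permutation test), with -0.06 in the cows of slides 5 and 6 and 0.30 in those of slides 7 and 8. This value rested on 1 array, the LT of cow255, where COX8A was far above the other arrays. Without cow255, left out after its value was seen, the difference was 0.19 (95% interval 0.10 to 0.29, unadjusted p = 0.00014 in the permutation test) and the mean difference of COX8A between LT and ST was 0.06.

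In complex V, 8 of 11 subunits were higher in the LT and none was lower. ATP5D, the delta subunit of the central stalk, ranged from 1.53 to 2.51 in the LT (median 2.00) and from 1.14 to 2.09 in the ST (median 1.54). It was higher in the LT of 30 cows, with a log2 fold change of 0.44 (standard error 0.06 and adjusted p = 2.90e-09). ATP5A1 and ATP5B, the alpha and beta subunits of the catalytic head, were 0.23 (standard error 0.05 and adjusted p = 2.20e-05) and 0.12 higher (standard error 0.05 and adjusted p = 0.0258). ATP5B was no longer called with the slide as a block (adjusted p = 0.112). The 3 genes of the c subunit, which forms the rotor ring, were all higher, ATP5G1 by 0.25, ATP5G3 by 0.25 and ATP5G2 by 0.16. ATP5G2 changed less than ATP5G1 by 0.09 (95% interval 0.04 to 0.15, adjusted p = 0.00335) and less than ATP5G3 by 0.09 (95% interval 0.03 to 0.15, adjusted p = 0.0079, same permutation test). The difference from ATP5G3 was 0.16 in the cows of slides 5 and 6 and 0.02 in those of slides 7 and 8, and that from ATP5G1 was 0.11 and 0.08. ATP5G1 and ATP5G3 differed by 0.0044 (95% interval -0.05 to 0.06, adjusted p = 0.864 in the permutation test), with -0.05 and 0.06 on the scan days. ATP5S and COX4NB, which are not subunits of the enzyme complexes, were lower in the LT, at -0.28 (standard error 0.06 and adjusted p = 3.48e-05) and -0.21 (standard error 0.05 and adjusted p = 9.84e-05). ATP5S had a mean difference of -0.06 in the cows of slides 5 and 6 and of -0.51 in those of slides 7 and 8, and COX4NB of -0.19 and -0.24. Neither passed the test when the control features were used for scaling (log2 fold changes of -0.10 and -0.03).

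The same comparison was made cow by cow. A median of 57.5 of the 69 genes were higher in the LT than in the ST of a cow, and more than 34 were higher in 26 of 32 cows. In the 16 cows whose LT lay on slides 5 and 6, 65 of the 69 mean differences were above 0, with a median of 0.25. In the 16 cows of slides 7 and 8, 44 were above 0, with a median of 0.07. Of the 48 genes called higher, 48 were above 0 in the former cows and 44 in the latter. Of the 7 called lower, 4 were below 0 in the former and 7 in the latter. At the low end, cow301, a stressed cow whose LT lay on slide 7, had 1 gene higher in the LT and a median difference of -0.50. Without cow301, 51 genes were higher and 6 lower, and without cow321, 47 and 7. Of the 4327 transcripts, 951 were higher and 1263 lower without cow301, and 954 and 1286 without cow321.

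**Figure D3:**
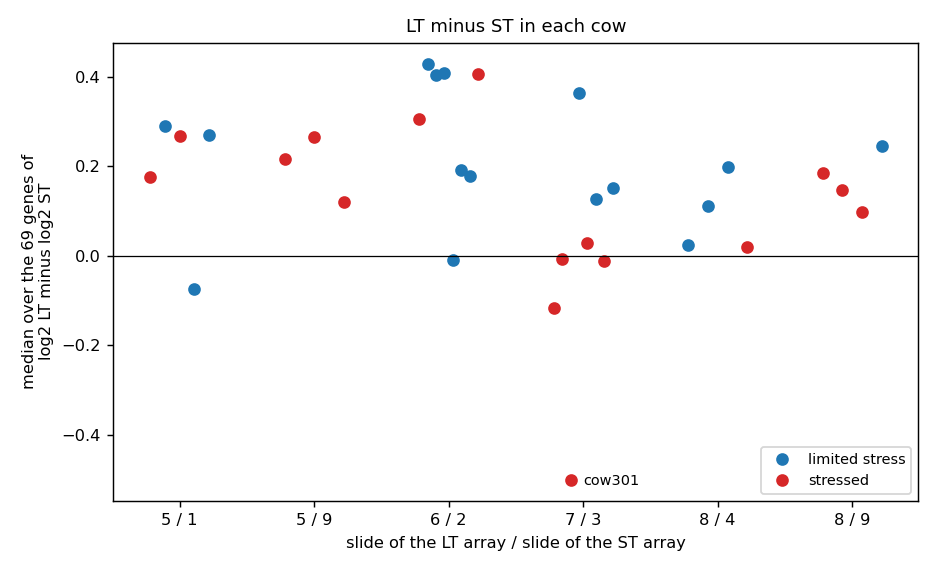
Median over the 69 genes of the log2 level in the LT minus that in the ST, for each of the 32 cows, by the slides of the pair of arrays and coloured by stress group. Most cows lie above 0, and cow301 lies lowest, at -0.50.

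A second reading of 54 of these genes came from 55 custom probe sets, of which 1 probe overlapped the named probe and 206 further probes did not. These sets were matched after the results were known. Among the 206 further probes, 146 were higher in the LT and 14 lower, where 26.8% of all the probes tested were higher and 31.3% lower. The median of a set's further probes lay on the same side of 0 as the named probe in 42 of the 45 sets whose gene was called. For NDUFS6, the 4 further probes had log2 fold changes of 0.49 to 0.66. For NDUFA3, 3 further probes lay between 0.52 and 0.58, and for ATP5D 4 lay between 0.29 and 0.44. For NDUFC1 they lay between -0.67 and -0.31. The exceptions were ATP5I (a median of -0.05, named probe 0.14), SDHC (0.01, named probe -0.09) and UQCR. The named probe of UQCR had a log2 fold change of 0.23 (standard error 0.06 and adjusted p = 6.82e-04). The 5 probes of the set that shares 31 bases with it were all lower in the LT, at -0.27 for the probe that overlaps and between -0.55 and -0.30 for the others. The level of UQCR between the muscles is therefore uncertain.

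**Figure D4:**
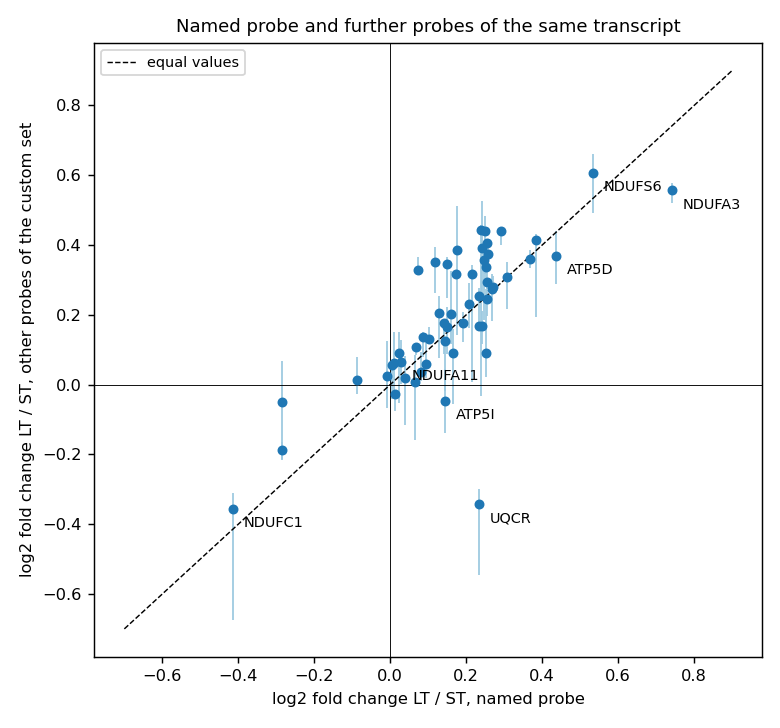
Log2 fold change (LT / ST) of the named probe against the median of the further probes of the custom set, with bars from the lowest to the highest further probe, for 54 genes (55 sets). Most points lie near the line of equal values, and UQCR lies far below it at 0.23 and -0.34.

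Other genes of mitochondrial energy supply, from lists written with earlier results of these data known, were set beside them. Of 9 genes of the citric acid cycle and pyruvate dehydrogenase, 7 were higher in the LT and none was lower, with a median log2 fold change of 0.24 and examples in IDH3G (0.22), SUCLG2 (0.27) and DLAT (0.33). Of 12 subunits encoded in mitochondrial DNA, 7 were higher and 2 lower. ND4 was 0.69 higher (standard error 0.08 and adjusted p = 2.41e-10) and ND5 0.55 higher (standard error 0.08 and adjusted p = 2.16e-07), both subunits of complex I. ND6, another subunit of complex I, was -0.86 (standard error 0.09 and adjusted p = 1.30e-11), with -0.59 in the cows of slides 5 and 6 and -1.12 in those of slides 7 and 8. In complex IV, the mean difference between LT and ST was -0.09 for COX1 (below 0 in 24 cows), 0.01 for COX2 and -0.0027 for COX3. It was -0.02 for ATP6 and 0.43 for ATP8 in complex V, and 0.19 for CYTB in complex III. Of 7 genes of energy exchange between mitochondria and cytosol, 4 were higher and 1 lower. Of 3 genes of mitochondrial biogenesis tested, 1 was higher and none was lower.

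Markers of fibre types moved with the same comparison. Of 6 fast fibre genes, 6 were lower in the LT, from -0.13 to -4.11, the latter for PVALB. Of 7 slow fibre genes, 5 were higher, 1 was lower (MYH7, -0.12) and the largest value was that of TNNT1 (0.91). The summed scaled signal of the slow fibre markers ranged from 212 to 353 in the LT and from 147 to 336 in the ST, over arrays with every probe. That of the fast fibre markers ranged from 373 to 504 in the LT and from 392 to 562 in the ST. Of 6 general muscle markers 5 were lower. Of 5 fat markers tested none was called, of 5 connective tissue markers 1 was lower, and 1 endothelial marker, PECAM1, was higher by 0.34. The 1 blood and the 1 leukocyte marker tested were not called. The 3 blood markers had summed signals of at most 0.019, and no blood probe was well above background on 8 or more arrays of a group, other than 1 in the LT of stressed cows. The part of these markers in the results was not tested.

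The effect of stress was then examined in each muscle. None of the 69 genes was called in the LT (limma, smallest adjusted p = 0.114), where 3.73% of 4311 transcripts were called, 2.2% higher and 1.53% lower, and 6 of the 69 had an unadjusted p under 0.05 (2 without cow301 and 2 without cow321), a threshold that 16% of all probes met. In the ST none was called either (smallest adjusted p = 0.216), where 3.6% of 4246 transcripts were called, 1.48% higher and 2.12% lower, and 1 had an unadjusted p under 0.05, as had 17.4% of all probes. The log2 fold changes (stress / limited stress) lay between -0.34 and 0.07 in the LT and between -0.17 and 0.14 in the ST. In each muscle, the 95% interval lay within 0.3 of 0 for 63 of the 69 genes.

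In the LT, the genes with the smallest p were NDUFA7 and NDUFA11, accessory subunits of complex I, followed by COX8A. NDUFA7 ranged from 2.86 to 3.25 in cows handled with limited stress (median 3.08) and from 2.55 to 3.21 in stressed cows (median 2.93). In 13 of 16 stressed cows it was below the median of the other group, with overlapping ranges and a log2 fold change of -0.19 (standard error 0.06 and adjusted p = 0.114). It passed the test with the scan day as a block (adjusted p = 0.0911) and after quantile normalization (adjusted p = 0.0440). NDUFA11 ranged from 3.13 to 3.53 with limited stress (median 3.31) and from 2.73 to 3.39 in stressed cows (median 3.23), at -0.16 (standard error 0.06 and adjusted p = 0.163). It passed with the cow as a replicate block over both muscles (adjusted p = 0.0852). NDUFS8, an iron-sulfur subunit, was at -0.16 (standard error 0.07 and adjusted p = 0.289) and passed with the slide as a block (adjusted p = 0.0851). NDUFA13 had a log2 fold change of -0.13 and COX8A one of -0.34. COX8A ranged from -0.97 to 1.40 with limited stress, with 1 high array (cow255), and from -1.55 to -0.31 in stressed cows. Without cow255 its log2 fold change was -0.21.

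In the ST, COX8A had the smallest p, with a range of -1.10 to -0.52 in cows handled with limited stress and of -1.38 to -0.68 in stressed cows. In 13 of 16 stressed cows it was below the median of the other group, as in the LT, with a log2 fold change of -0.17 (standard error 0.07 and adjusted p = 0.216). UQCR (0.14), NDUFA10 (0.14) and ATP5G3 (0.13) were above 0 with adjusted p of 0.346 or more. For UQCR the 5 probes of the custom set were again on the other side, at -0.08 for the probe that overlaps and between -0.10 and -0.08 for the others.

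The log2 fold changes of stress lay mostly below 0 in the LT (64 of 69) and above 0 in the ST (53 of 69). Their median was -0.07 in the LT, where that of all transcripts was -0.05, and 0.03 in the ST, where that of all transcripts was -0.06. With the control features for scaling, the median of all transcripts moved to -0.23 in the LT and 0.03 in the ST. That of the 69 genes moved to -0.25 and 0.13, with 0 genes above 0 in the LT and 68 in the ST. The medians of the 69 genes thus moved with a shift of all transcripts and kept their signs, whereas that of all transcripts in the ST turned. Fat markers, none of them called, had 0 of 5 values above 0 in the ST (median -0.59) and 1 of 5 in the LT (median -0.23), and their part was not tested. Without cow301, the median in the LT was -0.03, with 16 genes above 0. The subunits of complex V lay above 0 in the ST in 11 of 11 cases (median 0.04) and below 0 in the LT in 10 of 11 (median -0.04). The difference between the muscles in the effect of stress was below 0 for 68 of 69 genes, but none passed the test (limma, smallest adjusted p = 0.999, none with an unadjusted p under 0.05). Over all transcripts 0% were called in this comparison. These values came from the fit without a block. When the muscles were paired by a random replicate block for the cow, none of the 69 genes was called either. Of 4327 transcripts, 3 were then called higher and 2 lower. In this fit 7 of the 69 genes had an unadjusted p under 0.05, as had 7.04% of all probes. With the cow as a fixed block and the slide, 17 did, as had 9.86% of all probes, with a median of -0.14 and none called. In the fit without a block, the gene with the smallest p was ATP5I, a subunit of the membrane part of complex V, at -0.15 (95% interval -0.30 to 0.0023). In that fit the median over the 69 genes of the difference between the muscles in the effect of stress moved from -0.11 to -0.07 without cow301. The difference between LT and ST was present in both stress groups: 47 genes were higher and 4 lower in cows handled with limited stress, and 30 and 5 in stressed cows. Of all transcripts 38.1% were called in the former (16% higher and 22.1% lower) and 35.8% in the latter (15.9% higher and 20% lower), and 34 of the 69 genes were called in the same direction in both.

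**Figure D5:**
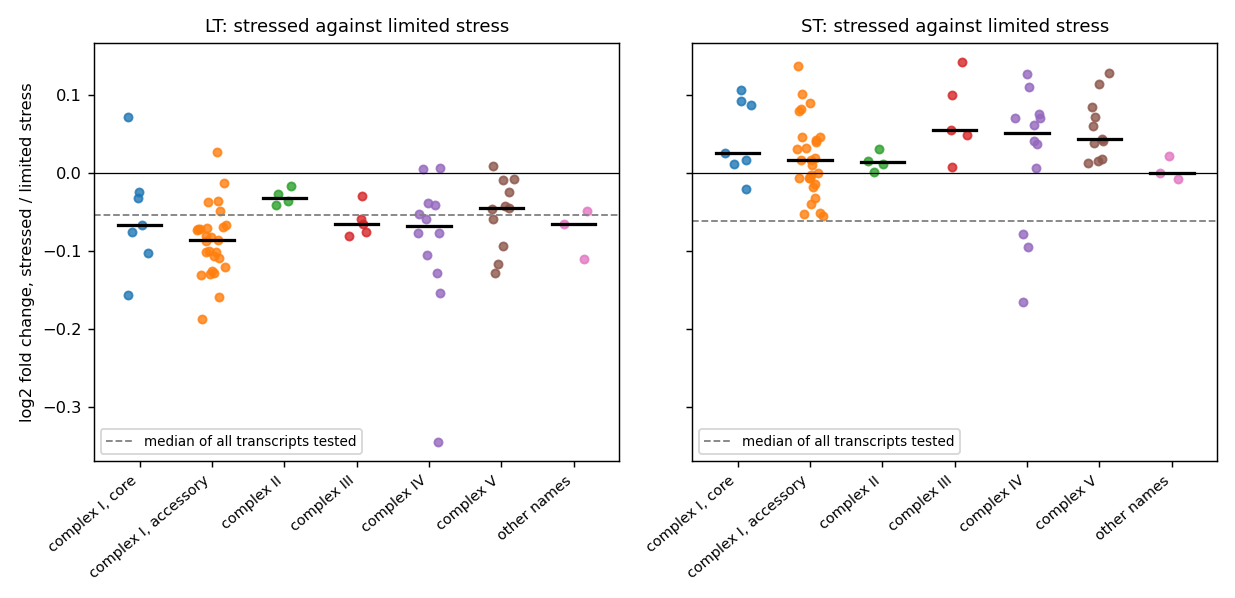
Log2 fold change (stress / limited stress) of each of the 69 genes by complex, in the LT and the ST, with black bars for the median of a class and a dashed line for the median of all transcripts tested. The points lie mostly below 0 in the LT and above 0 in the ST, and none passed the test.

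No gene was called for the EP diet in the LT (limma, smallest adjusted p = 0.979) or in the ST (0.949), nor had any an unadjusted p under 0.05, and 0% of all transcripts were called. Without cow321, 4 genes had an unadjusted p under 0.05 in the ST, as had 6.79% of all probes, and none was called. In the LT the log2 fold changes (EP / control) lay between -0.14 for ATP5S and 0.13. In the ST they lay between -0.13 and 0.07, and COX5A had the smallest p (-0.13, 95% interval -0.27 to 0.01). In the ST 61 of 69 genes were below 0, with a median of -0.05, where that of all transcripts was 0.0025, and without cow321 the median was -0.07. With the control features for scaling, the medians were 0.02 and 0.07. In the same comparison 5 of 5 fat markers were above 0 (median 0.76), 7 of 7 slow fibre markers below 0 (median -0.29) and 6 of 6 fast fibre markers above 0 (median 0.05), none of them called, and their part was not tested. The effect of stress did not differ between the diets by the test for any gene in the LT (smallest adjusted p = 0.9999) or the ST (0.969), where 0% of all transcripts were called. In the ST, NDUFA9 was nearest, at -0.24 (95% interval -0.48 to 0.0001).

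These genes varied together from array to array. In 26 of 64 arrays at least 55 or at most 14 of the 69 genes were above the mean of their group of muscle, stress and diet. In no array was so large a share of all the probes tested on 1 side. Each array was centred on a percentile of all its probes, which by itself limits how far their median can move. The values of all probes are therefore no test of whether these genes vary together more than other sets of genes. The median deviation of the 69 genes from these means ranged from -0.43 to 0.31 between arrays, and that of all probes from -0.10 to 0.06. The lowest value was that of the LT of cow301, in which 1 gene was above the mean of its group, whereas 57 were in its ST. Within groups, the SD of a gene had a median of 0.18 over the 69 genes and of 0.30 over all probes. It was smallest for SDHB (0.12) and largest for NDUFC1 (0.35).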

How the data were processed

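RNA from the LT and ST of 32 cows was amplified from poly(A) and hybridized to 64 single-colour Agilent arrays. The authors read them with Feature Extraction 10.1.1.1, and deposited an intensity per spot that the program had corrected for background and for spatial trend, with surrogate values for dim spots and no scaling between arrays. The deposited table holds the same intensities. Groups came from the sample labels. The slaughter day was not in the labels. The paper's scaling to control probes was kept as an alternative, because the 536 control features lay near background (array medians of 1.73 to 6.36 units).

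Spots of a probe were averaged and log2(signal) was centred on the 75th percentile of each array (2470 to 4202 units). A probe was kept in a muscle if 11 or more of its 32 arrays read it well above background. With limma 3.58.1 in R 4.3.3, stress by diet groups were fitted per muscle, and all 64 arrays with 8 groups gave LT against ST and stress by muscle, without a block. Tests were two-sided, Benjamini-Hochberg adjustment ran over all probes, and a call for a transcript required 80% or more of its probes below an adjusted p of 0.1, all with the same sign. Each of the 69 genes had 1 probe, and the values of 1 of them are counted but not reported here. The steps were tested on simulated data. Precision is limited by how many arrays there are.

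The cow number pairs the muscles of the same animal: the deviations of a cow's arrays from their group means correlated at 0.10 to 0.75 across probes (median 0.42), against a median of -0.01 between different cows. Isoform pairs were tested with SciPy 1.17.1. Genes were named as the called genes with the smallest adjusted p (up to 8 in each direction), or the 5 with the smallest p where fewer than 5 were called, and a set of central subunits and isoform pairs. NDUFS3, NDUFV2, UQCRC2, ATP5I (further probes), SDHD, MYH7, PECAM1, COX1, COX2, COX3, ATP6, ATP8, CYTB and the genes with the extreme SD were named after their values were seen. The genes and lists were chosen with earlier results of these data known. A RefSeq table (ARS-UCD2.0) held the accession of 63 genes and another symbol for 14.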

Additional observations from a re-analysis of the deposited data

How the results depend on the processing

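For LT against ST, the alternatives gave 45 to 64 called genes, against 55. The 45 came with the scan day as a block, where 630 of 4327 transcripts were higher and 864 lower. The 64 came without scaling between arrays, where 1593 were higher and 599 lower. The cow as a random replicate block gave 58 called genes, where 1142 of 4327 transcripts were higher and 1501 lower. The cow as a fixed replicate block with the slide gave 49, where 849 were higher and 1152 lower. With this pairing of the muscles as a random block, stress in the LT gave 1 called gene (NDUFA11). Of the 55 genes, 40 were called under all 12 alternatives, 39 higher and 1 lower (COX6B2). This was not counted over all transcripts, so that 40 has no share to be set against. With the median of the control features 1 of the 55 genes changed sign, SDHC (0.10), as it did without scaling (0.0408). Stress in the LT, where no gene was called, gave 1 called gene after normexp and quantile normalization (NDUFA7), where 99 of 4311 transcripts were higher and 65 lower. It gave 1 with the slide as a block (NDUFS8), against 106 and 121 of all transcripts. The scan day as a block gave 1 (NDUFA7), against 108 and 116. The cow as a replicate block gave 1, against 111 and 130 of 4327. Stress in the ST, the diet, and both interactions had 0 called genes under every alternative run. Without scaling between arrays, 28 of the 69 genes had an unadjusted p under 0.05 for stress in the ST, as had 13.2% of all probes. The median of the 69 genes was then 0.18, where that of all transcripts was 0.09. With the control features for scaling 0 did, as had 4.03% of all probes. For stress by muscle without scaling 20 did, as had 5.19% of all probes. Without cow321, 7 genes had an unadjusted p under 0.05 for stress by diet in the ST, against 0 with all cows. Without cow301 or without cow321, alternatives chosen after seeing the data, the count for LT against ST was 54 to 57 and the others stayed at 0. The scaling to control features moved the median of all transcripts from 0.0031 to 0.20 for the diet in the LT and from 0.0176 to -0.29 for stress by diet in the LT, and signs of genes that were not called turned with this shift: for the diet in the LT, ATP5S (0.0586), NDUFA8 (0.12), NDUFS1 (0.10) and NDUFB5 (0.14), and for stress by diet in the LT, NDUFS6 (-0.10) and NDUFA12 (-0.18). COX6A2 for stress in the ST turned with that scaling (0.0174) and without scaling (0.0707), and ATP5E for stress by diet in the ST turned after quantile normalization (0.0151). Muscle could be fitted beside the slide or the scan day only with that as a random block, since neither held both muscles. The median SE was 0.05 between the muscles and 0.07 for stress.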
